A study of Mus musculus with 6 samples.

Results

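A set of 8 genes of calcium entry across the cell membrane was followed in hearts of dystrophic mice given a Nox4 inhibitor or its vehicle. They are the TRP channel genes Trpc1, Trpc6, Trpv2, Trpm4 and Trpm7, the mechanically gated channel gene Piezo1, and Orai1 and Stim1, the channel and the sensor of store-operated entry. They were chosen by name, as 8 of the 50385 genes in the count table, and all 8 were among the 20472 genes that passed the filter on low counts. They carry the identifiers Trpc1 ENSMUSG00000032839, Trpc6 ENSMUSG00000031997, Trpv2 ENSMUSG00000018507, Trpm4 ENSMUSG00000038260, Trpm7 ENSMUSG00000027365, Piezo1 ENSMUSG00000014444, Orai1 ENSMUSG00000049686, Stim1 ENSMUSG00000030987. The 6 libraries are from hearts of male mice of the genotype Mdx/Utrn dKO, which lack dystrophin and its relative utrophin. Of these, 3 are from mice given setanaxib at 60 mg/kg per day by gavage and 3 from mice given corn oil. Treatment lasted 12 weeks in each group, from an age of 2 to 3 months. Every group carries both mutations and no healthy heart is in the comparison, so the values show a difference between treated and untreated dystrophic hearts and not the effect of the disease. The labels number the libraries and do not say in words that each is a separate animal. The p-values therefore weigh the group difference against the scatter between these 6 libraries.

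In healthy muscle, dystrophin ties the cytoskeleton to the membrane and spreads the strain of contraction. Without it the membrane lets in more calcium when the cell is stretched, and stretch-activated channels and store-operated entry have both been put forward as routes. In store-operated entry, STIM1 in the membrane of the sarcoplasmic reticulum senses a fall of stored calcium and opens ORAI1 in the surface membrane. TRPC channels open downstream of receptors that act through phospholipase C, and raised calcium activates the phosphatase calcineurin, which turns on NFAT transcription factors.

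Libraries held 110803307 to 154003318 estimated counts over genes, with 20.5% to 29.96% from the mitochondrial genome. Heart muscle markers were abundant in every library. The 8 genes Myh6, Actc1, Tnnt2, Tnni3, Myl2, Ryr2, Pln and Atp2a2 summed to 39962 to 55876 CPM. CPM is a gene's share of the library total, scaled between libraries by trimmed mean of M values. The lowest of these sums was in setanaxib replicate 3, against 47566 CPM or more elsewhere. Setanaxib replicate 3 stood apart: lung markers summed to 650 CPM there, against at most 20.6 CPM elsewhere, and the atrial markers found in the table, Myl7, Myl4 and Nppa, to 2914 CPM against at most 568 CPM. Scgb1a1, an airway secretory gene, made up 598 CPM of that lung sum, and Sftpc and Sftpb, the surfactant genes of lung alveoli, were at 1.34 and 2.76 CPM there and at 0 elsewhere. Setanaxib replicate 1 stood apart in another way, with 207 genes at 0 that reached 40 or more estimated counts everywhere else, against 4 to 56 such genes in the others. Markers of activated fibroblasts were lower for 6 of 6 genes with no overlap, where 9.46% of all genes were lower with no overlap, summing to 465 to 583 CPM in vehicle hearts and 173 to 328 CPM in treated hearts, and their part in the differences below was not tested. In whole tissue, fewer cells of a type and less RNA per cell cannot be told apart.

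None of the 8 genes passed edgeR's quasi-likelihood test over all genes, with adjusted p from 0.383 to 0.970. Over all genes that test called 0.00488% of those tested, that is 1 gene. Trpm7 was the 1 member with an unadjusted p under 0.05, a level that 8.46% of all genes reached, 3.76% on the higher side. The groups did not overlap for 2 members, Trpm7 on the higher side and Trpv2 on the lower. This is 25.0% of the 8, against 17.6% of all genes, of which 8.11% were higher and 9.46% lower. Of the 8, 4 had a positive and 4 a negative log2 fold change, with a median of 0.01, against 0.01 over all genes tested. Trpc6, with 1 library at 0, is counted among the negative. DESeq2, run as an alternative, called 2.31% of genes and 1 member, Trpm7, where it called 0.86% of genes on the higher side.

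**Figure D1:**
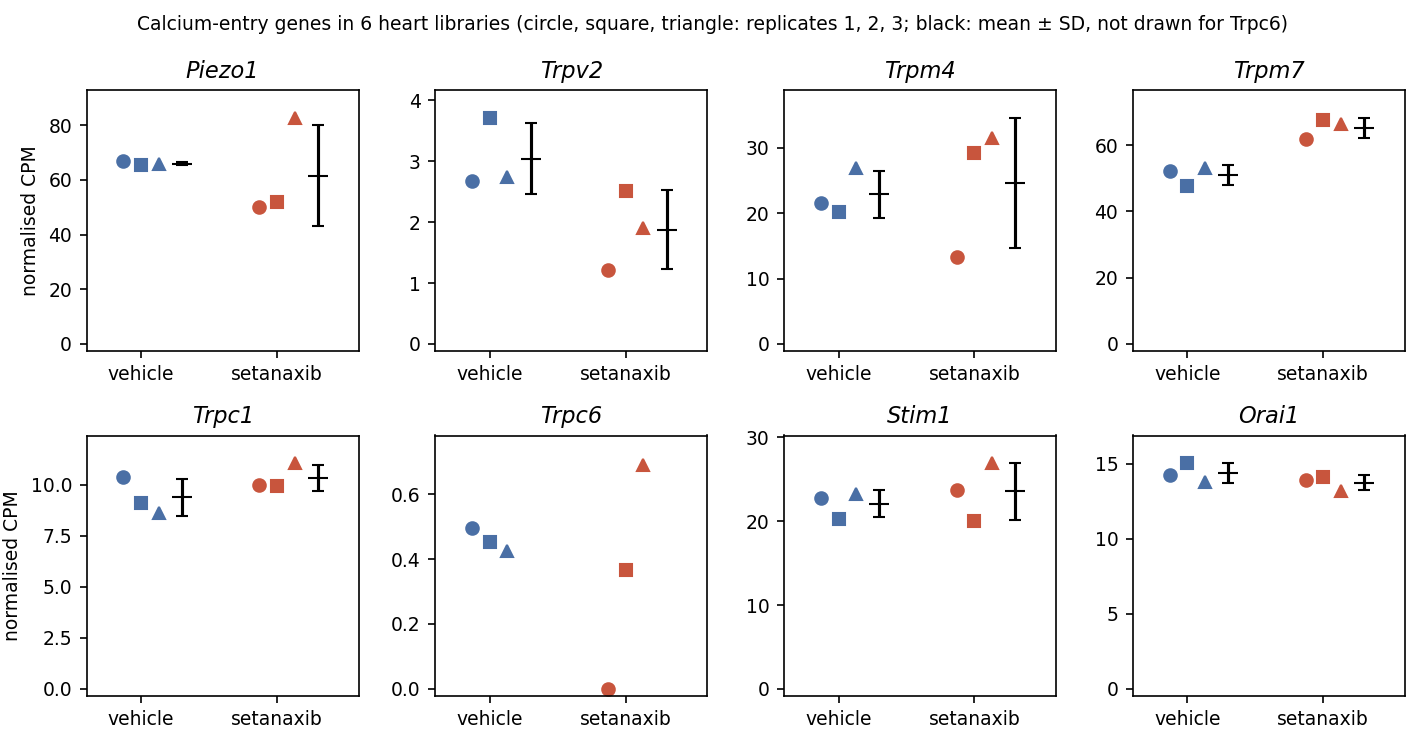
Normalised CPM (vertical axes, from 0) of the 8 genes in the 3 vehicle libraries (blue) and 3 setanaxib libraries (red), with the mean and SD of each group in black except for Trpc6, where 1 library is at 0. Trpm7 sits at 47.7 to 53.2 CPM with vehicle and at 61.8 to 67.6 CPM with setanaxib, while the setanaxib libraries spread widely for Piezo1 and Trpm4.

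Trpm7 encodes a channel for magnesium, calcium and zinc that carries a protein kinase at its end, and it is present in most cell types. Its levels were 52.0, 47.7 and 53.2 CPM in vehicle replicates 1, 2 and 3, and 61.8, 67.6 and 66.3 CPM in setanaxib replicates 1, 2 and 3. All 3 setanaxib libraries were above all 3 vehicle libraries, and the spread within each group was small. The means were 51.0 ± 2.88 CPM under vehicle and 65.2 ± 3.05 CPM under setanaxib (SD, n = 3 each), a ratio of 1.28. The log2 fold change was 0.36 (SE 0.09, edgeR adjusted p = 0.383, unadjusted p = 0.00526), and its unadjusted 95% interval ran from 1.11-fold to 1.48-fold. An exact two-sided permutation test on log2 CPM gave p = 0.1, the smallest value that 3 against 3 libraries allow. DESeq2 gave a log2 fold change of 0.35 (SE 0.08) and an adjusted p of 0.00204. Without any 1 of the 6 libraries the edgeR log2 fold change stayed between 0.31 and 0.39, with an adjusted p between 0.228 and 0.948. DESeq2's adjusted p stayed between 0.000404 and 0.0331 in these smaller fits, which were chosen after seeing the data. DESeq2 also called more genes in each of them than the 505 of 21862 with all 6 libraries. The count ran from 523 of 24122 genes without vehicle replicate 1 to 1392 of 22157 without setanaxib replicate 3. With all 6 libraries limma-voom, another alternative, gave an adjusted p of 0.342.

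The promoters of 7 of the 8 genes were found in RefSeq's table, which is on GRCm38.p6 while the counts were made on GRCm39. Those of Trpm7 and Trpv2 are printed because these are the 2 members whose groups did not overlap, and that of Orai2, a relative described with the store-operated genes, was chosen after the motifs were seen, because it holds the same motif as Trpm7. Each run is the 250 bases before the start of transcription, 5′ to 3′ on the gene's strand. Capitals mark CACGTG, the E-box that the circadian clock factors and other basic helix-loop-helix proteins bind, which reads the same on both strands.
Trpm7, chr2:126876262-126876511, minus strand: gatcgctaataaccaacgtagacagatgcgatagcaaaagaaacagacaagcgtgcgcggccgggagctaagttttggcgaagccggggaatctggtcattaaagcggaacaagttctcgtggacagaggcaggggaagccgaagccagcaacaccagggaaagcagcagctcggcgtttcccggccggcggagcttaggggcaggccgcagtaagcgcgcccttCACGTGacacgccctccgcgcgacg
Trpv2, first start, chr11:62574236-62574485, plus strand: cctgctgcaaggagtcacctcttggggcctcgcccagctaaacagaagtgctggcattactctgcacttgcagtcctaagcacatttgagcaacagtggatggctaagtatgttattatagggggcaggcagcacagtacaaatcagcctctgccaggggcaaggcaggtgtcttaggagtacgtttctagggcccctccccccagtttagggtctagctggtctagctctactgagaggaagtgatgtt
Orai2, chr5:136170657-136170906, minus strand: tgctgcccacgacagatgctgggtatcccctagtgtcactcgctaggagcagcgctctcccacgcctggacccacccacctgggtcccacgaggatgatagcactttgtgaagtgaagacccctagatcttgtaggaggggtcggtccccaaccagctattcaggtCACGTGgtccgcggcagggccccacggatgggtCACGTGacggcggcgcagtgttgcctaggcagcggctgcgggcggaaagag

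The Trpm7 window holds 1 E-box, whose first base lies 25 bases before the start, and the Orai2 window holds 2, at 84 and 51 bases before it. The other member windows hold none, and 6.02% of all 32851 promoter windows of this length hold at least 1. Of the other windows searched, that of Stim2, which was also lower in all 3 setanaxib libraries, holds 0, and those of the first and second starts of Rcan1 hold 1 and 0. The core of the NFAT site, GGAAA on either strand, occurs 2 times in the Trpm7 window and 1 time in the window of the third start of Trpv2, and 55.6% of all windows hold it. Those of the first and second starts of Rcan1 hold 0 and 3 copies of this core, that of Stim2 holds 0 and that of Orai2 holds 1. The windows of Trpc1, Piezo1, Orai1 and Stim1 hold 3, 1, 3 and 8 copies of the GC box, GGGCGG on either strand, and those of Trpm7, Trpc6 and Trpv2 hold 0, where 32.7% of all windows hold 1 or more. At 60.4% the Trpm7 window is richer in G and C than the median window, at 52.4%, and the first Trpv2 window is at 53.2%. The windows of Trpc1, Piezo1, Orai1 and Stim1 are richer still, at 62.8%, 74%, 70.8% and 78.4%, and that of Trpc6 is at 56.4%. These are matches of letters in a reference sequence and do not show a bound factor.

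Over the 6 libraries, 5 genes followed Trpm7 most closely among 12500 candidates with an average of at least 0 log2 CPM. The measure was the root mean square difference in log2 CPM after each gene was centred on its own mean. They were Rsbn1l at 0.029, Mapk1ip1 at 0.036, Ctnna3 at 0.043, Phactr2 at 0.045 and Chd2 at 0.048. This is a description of these libraries, with no test.

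Trpv2 encodes a channel of the vanilloid family that reacts to stretch, and in dystrophic muscle its protein has been described at the surface membrane. It is also a known gene of macrophages. It was a low transcript, with levels of 2.67, 3.72 and 2.74 CPM in vehicle replicates 1, 2 and 3 and 1.22, 2.52 and 1.90 CPM in setanaxib replicates 1, 2 and 3. Every setanaxib library was below every vehicle library, with the closest pair at 2.52 and 2.67 CPM. The means were 3.04 ± 0.585 and 1.88 ± 0.650 CPM (SD, n = 3 each), and the log2 fold change was -0.70 (SE 0.31, edgeR adjusted p = 0.616, unadjusted p = 0.0617). The unadjusted 95% interval of the ratio ran from 0.369 to 1.03. Leaving out setanaxib replicate 1 gave -0.47, and leaving out setanaxib replicate 2 gave -0.97.

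Macrophage markers moved with Trpv2. Of the 10 markers, 9 were lower with setanaxib and did not overlap between the groups, where 9.46% of all genes were lower with no overlap. The 10 together summed to 350, 438 and 342 CPM in vehicle replicates 1, 2 and 3 and 219, 276 and 249 CPM in setanaxib replicates 1, 2 and 3. The defining markers C1qa and Csf1r were above 0 in every library, and Fcgr1 was the only one of the 10 listed at 0 in any library. Set against that sum, Trpv2 was at 7.63, 8.49 and 8.02 CPM per 1000 CPM of macrophage markers with vehicle and at 5.56, 9.12 and 7.62 with setanaxib. On this scale, added after the values were seen, the groups overlapped (exact permutation p = 0.7, and 0.8 after adjustment over the 4 genes treated this way). The marker sum was itself lower with setanaxib. An overlap on this scale therefore does not show which cells carry a difference, for Trpv2 or for the genes set against it below. The part of macrophages in the Trpv2 difference was not tested.

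**Figure D2:**
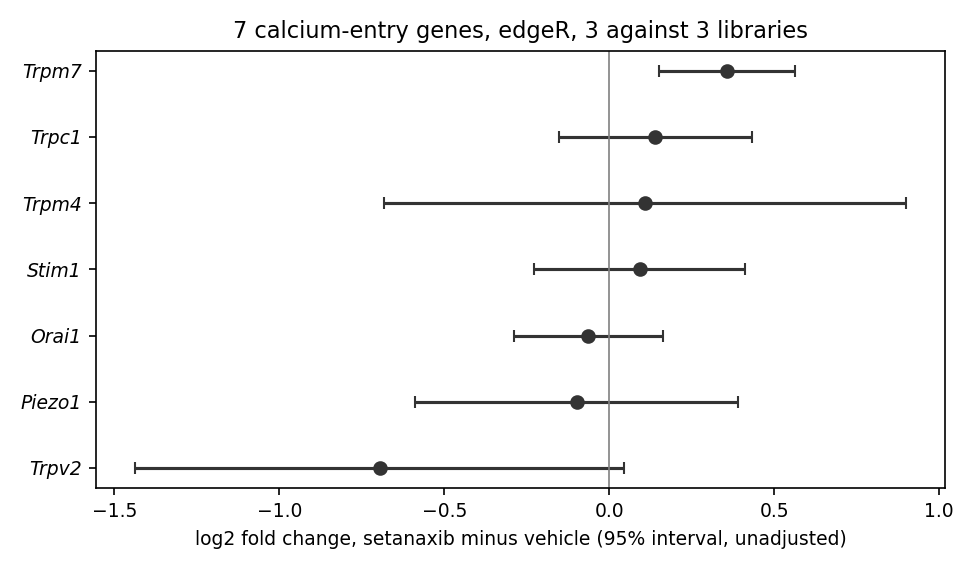
Log2 fold change of setanaxib minus vehicle (horizontal axis) for 7 of the 8 genes, with points for edgeR's estimate and bars for its unadjusted 95% interval. Trpc6 is left out because 1 library is at 0. The interval of Trpm7 lies above 0, from 0.15 to 0.56, and all the others include 0.

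Piezo1 encodes a large channel that opens when the membrane is stretched and is well known from blood vessel walls and red cells. Its levels were 66.8, 65.5 and 65.7 CPM in vehicle replicates 1, 2 and 3. In setanaxib replicates 1 and 2 it was at 50.1 and 51.9 CPM, and in setanaxib replicate 3 at 82.8 CPM. The vehicle libraries thus lay close together (SD 0.690 CPM), while the setanaxib libraries fell on both sides of them. With all 6 libraries the log2 fold change was -0.10 (SE 0.20, edgeR adjusted p = 0.937). Without setanaxib replicate 1 or 2 it was positive in edgeR, at 0.024 and 0.0095. Without setanaxib replicate 3 it was -0.37 (SE 0.06, edgeR unadjusted p = 0.00159, adjusted p = 0.151). DESeq2 then called Piezo1, in a fit chosen after seeing the data (log2 fold change -0.37, SE 0.05, adjusted p = 2.3e-09). In that smaller comparison 13.6% of all genes had an unadjusted p under 0.05 in edgeR. DESeq2 called 1392 of 22157 genes there, against 505 of 21862 with all libraries. Setanaxib replicate 3 is the library with the lung and atrial markers given above, and whether these tissues carry the higher Piezo1 level was not tested.

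Endothelial markers, which mark a main home of Piezo1, summed to 722 to 805 CPM under vehicle and to 548, 709 and 671 CPM in setanaxib replicates 1, 2 and 3. None of the 7 was at 0 in any library and 6 were lower. In setanaxib replicate 3 the endothelial gene Pecam1 was highest of the 6 libraries, at 149 CPM, while Cdh5 was lowest, at 162 CPM. Piezo2, the relative of Piezo1 in sensory neurons and lung, was at 5.36, 2.60 and 5.69 CPM under vehicle and, in treated hearts, 1.88, 2.02 and 9.49 CPM, so it too was highest in setanaxib replicate 3. Piezo1 shares exonic bases with Ctu2 on the opposite strand, which averaged 5.03 CPM, and no source used here says whether reads were counted by strand, so part of its count is uncertain.

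Trpm4 encodes a channel that calcium opens and that passes sodium and potassium but not calcium, and it is expressed in the cardiac conduction system and atria. Its levels were 21.6, 20.1 and 26.9 CPM in vehicle replicates 1, 2 and 3 and 13.2, 29.2 and 31.5 CPM in setanaxib replicates 1, 2 and 3. Of the setanaxib libraries, 1 was below all vehicle libraries and the other 2 were above them. The log2 fold change was 0.11 (SE 0.33, edgeR adjusted p = 0.962), and leaving out setanaxib replicate 1 gave 0.40 while leaving out setanaxib replicate 3 gave -0.11. The SD was 40.4% of the mean in the setanaxib group, against 15.5% with vehicle. The interval of the ratio, 0.622 to 1.87, takes in both lower and higher levels.

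Trpc1 and Trpc6 encode channels of the canonical TRP family, which form mixed tetramers, and both have been studied as stretch-linked routes in muscle lacking dystrophin. Trpc1 was at 10.4, 9.12 and 8.61 CPM under vehicle and, in treated hearts, 9.96, 9.93 and 11.1 CPM in replicates 1, 2 and 3. The groups overlapped, and the log2 fold change was 0.14 (SE 0.12, edgeR adjusted p = 0.818), with an interval of the ratio from 0.900 to 1.35. Trpc6 was near the limit of the table, at 0.494, 0.452 and 0.426 CPM under vehicle and, in treated hearts, 0, 0.365 and 0.690 CPM. These are 60, 66 and 58 estimated counts against 0, 48 and 91. The value of 0 is in setanaxib replicate 1, where a count of 0 would allow up to 3 counts, or 0.0236 CPM, for counting error only. Trpc6 is 1 of the 207 genes at 0 there and well above it elsewhere, so the 0 need not mean absence, and no fold change is read for Trpc6.

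**Figure D3:**
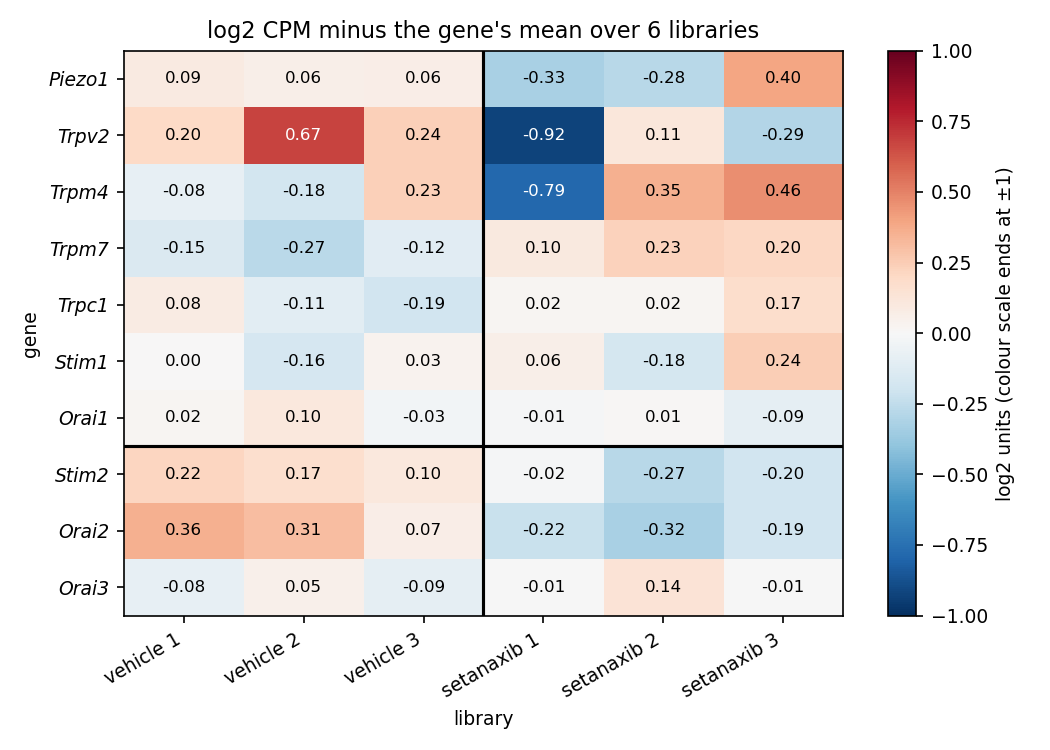
Log2 CPM of 7 of the 8 genes (above the black line) and 3 relatives (below it) in each library, minus the gene's own mean over the 6 libraries; red is above and blue below that mean. Trpm7 is below its mean in all vehicle libraries and above it in all setanaxib libraries, and Stim2 and Orai2 show the opposite order.

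Stim1 and Orai1, the core pair of store-operated entry, did not differ beyond the spread between libraries. Stim1 was at 22.8, 20.3 and 23.2 CPM in vehicle replicates 1, 2 and 3 and at 23.7, 20.0 and 26.9 CPM in setanaxib replicates 1, 2 and 3. Its log2 fold change was 0.09 (SE 0.13, edgeR adjusted p = 0.904), with a ratio between 0.853 and 1.33 at 95%. Orai1 had the log2 fold change closest to 0 of the 8, with levels of 14.2, 15.1 and 13.8 CPM under vehicle and 13.9, 14.1 and 13.2 CPM under setanaxib. Its log2 fold change was -0.06 (SE 0.09, edgeR adjusted p = 0.908), with a 95% interval on the log2 scale from -0.29 to 0.16. Setanaxib replicate 3 held the highest Stim1 and the lowest Orai1 value. The ratio of Orai1 to Stim1 counts was 0.625, 0.744 and 0.592 with vehicle and 0.588, 0.706 and 0.490 with setanaxib, with overlapping groups (exact permutation p = 0.4).

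Their relatives Stim2 and Orai2 were lower in all 3 setanaxib libraries, where 9.46% of all genes were lower with no overlap. Stim2, the sensor that responds to smaller falls of stored calcium, was at 14.2, 13.7 and 13.1 CPM under vehicle and, in treated hearts, 12.1, 10.1 and 10.7 CPM (log2 fold change -0.32, SE 0.11, edgeR adjusted p = 0.517). Orai2, a subunit that can join ORAI1 in mixed channels, was at 2.78, 2.69 and 2.27 CPM under vehicle and, in treated hearts, 1.86, 1.73 and 1.89 CPM (log2 fold change -0.50, SE 0.17, edgeR adjusted p = 0.512). Orai3, the subunit found only in mammals, was at 12.5 to 13.8 CPM under vehicle and, in treated hearts, 13.2 to 14.6 CPM, with overlapping groups. Counted against each other within a library, Stim1 to Stim2 was 1.62 ± 0.147 with vehicle and 2.16 ± 0.318 with setanaxib, and Orai1 to Orai2 was 5.60 ± 0.467 and 7.56 ± 0.611 (SD, n = 3 each). Neither ratio overlapped between the groups (exact permutation p = 0.1 for each, the smallest possible, and 0.133 after adjustment over the 4 ratios computed). The pairs for these ratios were chosen after the values were seen, and the adjustment does not cover that choice. With Stim2 and Orai2 already seen to be lower, the ratios restate their levels and are no separate test. Set against macrophage markers as Trpv2 was, Orai2 was at 6.15 to 7.94 CPM per 1000 CPM under vehicle and, in treated hearts, 6.25 to 8.47, which overlap.

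Levels were compared between genes per kilobase of the longest coding transcript in GENCODE M21, as CPM per kilobase. With vehicle Piezo1 led at 8.03, followed by Orai1 at 7.66 and Trpm7 at 7.17, with Trpm4 at 5.40, Stim1 at 5.06, Trpc1 at 2.06, Trpv2 at 1.05 and Trpc6 at 0.140. The vehicle libraries of Piezo1, at 7.96 to 8.12, overlap those of Orai1, at 7.34 to 8.04, which in turn overlap those of Trpm7, at 6.71 to 7.48. Trpm4, at 4.75 to 6.35, also overlaps Stim1, at 4.64 to 5.33, and these 2 change places when all annotated exons are used as the length (2.11 and 2.13). With setanaxib the mean was 9.18 for Trpm7, 7.496 for Piezo1 and 7.33 for Orai1. The setanaxib libraries of Trpm7, at 8.69 to 9.51, lie within the range of those of Piezo1, at 6.10 to 10.07, and by all annotated exons the order of these means is Piezo1 at 6.20, Orai1 at 5.99 and Trpm7 at 5.76. Among the relatives, Orai3 was at 6.05 and Orai2 at 0.646 with vehicle, so that Orai1 and Orai3 were the main Orai transcripts, and Stim2 was at 2.77.

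The members did not all move together across libraries, though several shared the library of their highest or lowest value. Setanaxib replicate 3 held the highest value of 5 members, Trpc1, Trpc6, Trpm4, Piezo1 and Stim1, and setanaxib replicate 1 the lowest value of 4, Trpc6, Trpv2, Trpm4 and Piezo1. Both extremes therefore lie within the treated group for Trpc6, Trpm4 and Piezo1. Without setanaxib replicate 3 the groups did not overlap for 4 members, where 34.2% of all genes did not overlap. These were Trpm7 on the higher side and Trpc6, Trpv2 and Piezo1 on the lower. Trpc6 is counted there with its 0 in setanaxib replicate 1, which need not mean absence.

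**Figure D4:**
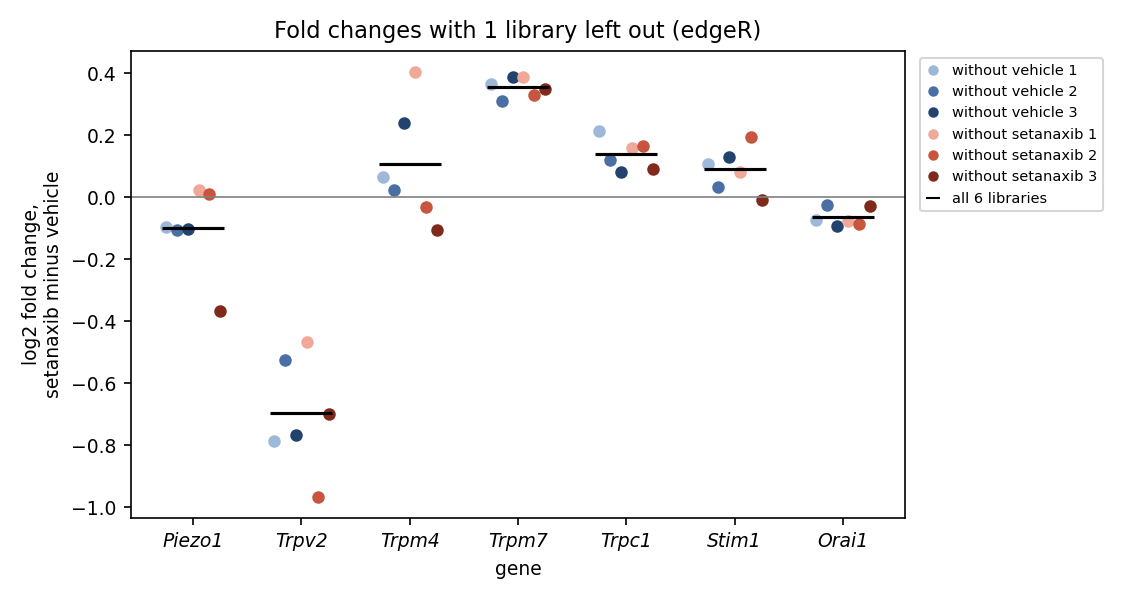
Log2 fold change of setanaxib minus vehicle (vertical axis) for 7 of the 8 genes in edgeR, with all 6 libraries (black bars) and with each library left out in turn (points, coloured by the library left out). Trpm7 stays between 0.31 and 0.39, while Piezo1 moves from -0.10 to -0.37 without setanaxib replicate 3.

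Other genes of calcium entry and its signalling were read from 6 lists. No gene of these lists passed edgeR over all genes. Among other store-operated genes and regulators, 14 were tested and 3 had an unadjusted p under 0.05, all lower, where 4.69% of all genes did so on the lower side. They were Stim2, Orai2 and Asph, whose products include junctin and junctate of the sarcoplasmic reticulum, and the list's median log2 fold change was 0.02. Asph was at 123 to 133 CPM under vehicle and, in treated hearts, 96.9 to 114 CPM (log2 fold change -0.23, SE 0.10). Saraf, which shuts store-operated entry off, was at 91.6 to 113 CPM and at 71.5 to 120 CPM, with overlapping groups.

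Of other TRP channels, 8 were tested, 6 lower and 2 higher, with a median log2 fold change of -0.24 against 0.01 over all genes. Pkd2l2, of the polycystin branch, averaged 10.2 ± 0.381 CPM under vehicle and 11.8 ± 0.466 CPM under setanaxib (SD, n = 3 each) and did not overlap, though its exons overlap Fam13b on the other strand at 15.3 CPM. Among the 14 not tested, Trpc4, Trpc5, Trpv1 and Trpa1 are listed at 0 in all 6 libraries. Trpv4, another channel linked to stretch, was at 7.91 to 8.72 CPM and at 6.85 to 9.68 CPM (log2 fold change -0.0048, SE 0.16).

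Of 13 other mechanically gated channels and partners, 9 were lower and 4 higher, with a median of -0.09 against 0.01 over all genes. An unadjusted p under 0.05 was reached by 2 on the lower side, Panx1 and Tmem150c, and by 1 on the higher side, Asic3, whose value 1 library sets, where 8.46% of all genes reached it. Panx1, a membrane channel that releases ATP, averaged 3.30 ± 0.376 CPM under vehicle and 2.06 ± 0.156 CPM under setanaxib (log2 fold change -0.68, SE 0.17, edgeR adjusted p = 0.396, DESeq2 adjusted p = 0.0218). Against macrophage markers its groups overlapped, at 7.43 to 10.8 and 7.89 to 9.04 CPM per 1000 CPM. Tmem150c, named tentonin for its link to mechanically evoked currents, averaged 6.06 ± 1.10 and 3.29 ± 1.31 CPM (log2 fold change -0.88, SE 0.34). Asic3, an acid-sensing channel, was at 0.452 to 0.779 CPM under vehicle and, in treated hearts, 5.72, 0.738 and 0.895 CPM, so that its log2 fold change of 2.10 (SE 0.86) moved to 0.51 without setanaxib replicate 1. Mdfic, whose product binds PIEZO channels as a partner, was at 17.9 to 20.1 CPM and at 12.0 to 17.1 CPM, and the groups did not overlap (log2 fold change -0.34, SE 0.15). Orai3, Mdfic, Piezo2, Saraf, Trpv4, Cacna1c, Cacna1h and Cacna2d2 were named after their values were seen. Kcnk2, Pkd2, Tmem63b and Trpm6 were computed beside them and are not described.

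Of 18 genes of voltage-gated, exchanger and purinergic calcium entry, 9 were higher and 9 lower, with a median log2 fold change of -0.01, and 2 had an unadjusted p under 0.05, both lower, where 4.69% of all genes did so on the lower side. Slc8a2, a sodium-calcium exchanger best known from brain, averaged 2.90 ± 0.513 and 1.43 ± 0.0686 CPM (log2 fold change -1.02, SE 0.20, edgeR adjusted p = 0.310, DESeq2 adjusted p = 0.00227). Cacnb1, a calcium channel subunit best known from skeletal muscle, averaged 9.58 ± 1.38 and 6.65 ± 1.22 CPM (log2 fold change -0.53, SE 0.19). Cacna1c, the pore of the main cardiac calcium channel, was at 553 to 576 CPM under vehicle and, in treated hearts, 801, 672 and 466 CPM, with overlapping groups. Cacna1h and Cacna2d2 were at 117 and 59.8 CPM in setanaxib replicate 3 and at most at 37.8 and 4.35 CPM elsewhere, the same library that held the lung and atrial markers.

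On the calcineurin and NFAT side, 13 of 15 genes were lower, with a median log2 fold change of -0.10 against 0.01 over all genes. The groups did not overlap for 2 of the 15 (13.3%), both lower, against 17.6% of all genes, 9.46% on the lower side. The sum of the list was lowest in setanaxib replicate 3, at 969 CPM, against 1159 CPM or more elsewhere. Rcan1, a calcineurin inhibitor that NFAT itself switches on, was at 98.2, 155 and 96.7 CPM under vehicle and, in treated hearts, 69.7, 55.4 and 35.2 CPM. The highest setanaxib library was below the lowest vehicle library (log2 fold change -1.13, SE 0.30, edgeR adjusted p = 0.427, DESeq2 adjusted p = 0.0186). It was the 1 gene of this list with an unadjusted p under 0.05, against 8.46% of all genes, and Rcan3 followed with a log2 fold change of -0.28 (SE 0.14) and overlapping groups. The Rcan1 count is for the whole gene and does not separate its first and second starts.

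In the receptor and phospholipase C arm, which opens TRPC channels, 16 genes were tested and 3 reached an unadjusted p under 0.05, where 8.46% of all genes did so. Of the 3, Adra1b and Agtr1a were higher and Plcg2 was lower. The median log2 fold change of the list was 0.02, against 0.01 over all genes. Plcg2, a phospholipase of blood cells, averaged 18.7 ± 1.49 and 10.5 ± 2.88 CPM (log2 fold change -0.82, SE 0.20, edgeR adjusted p = 0.389, DESeq2 adjusted p = 0.0181). Against macrophage markers its groups overlapped, at 49.7, 41.8 and 59.4 CPM per 1000 CPM with vehicle and 39.9, 50.2 and 36.3 with setanaxib. The receptors for noradrenaline and angiotensin, Adra1b and Agtr1a, were higher in all 3 setanaxib libraries, at 28.3 to 32.8 against 20.1 to 25.3 CPM and at 37.6 to 44.3 against 32.0 to 34.0 CPM. Their log2 fold changes were 0.42 (SE 0.12) and 0.32 (SE 0.09), with edgeR adjusted p of 0.447 and 0.451, and DESeq2 called Agtr1a (adjusted p = 0.0448) and not Adra1b (0.0696).

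**Figure D5:**
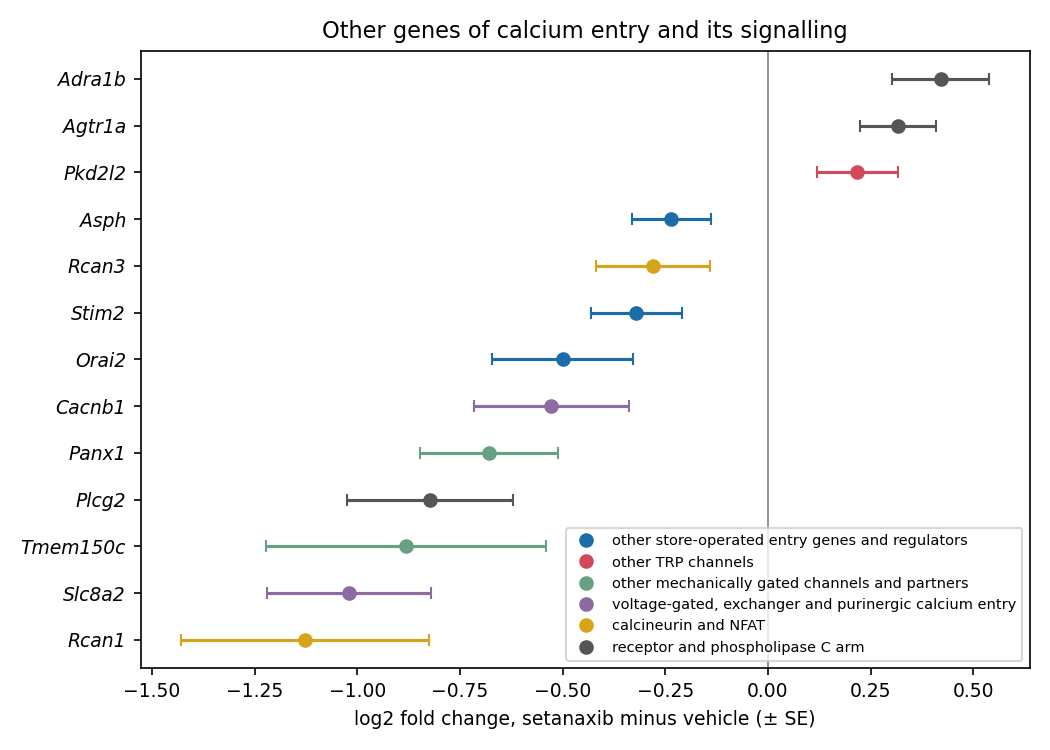
Log2 fold change of setanaxib minus vehicle (horizontal axis, bars are ± SE) for 13 named genes of 6 lists around calcium entry, coloured by list. Rcan1 is lowest at -1.13 and Adra1b highest at 0.42, and none passed edgeR over all genes; Asic3 is left out because 1 library sets its value.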

How the data were processed

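The deposited table holds estimated counts per gene, given by the authors in whole numbers with no scaling across samples. The build was GRCm39, and the tools listed are STAR 2.5.4b, DESeq2 1.42.0, FastQC 0.11.9 and featureCounts 2.0.1, per the submitters' processing notes, which assign no step. Per the file headers, names have the form of StringTie's count script. Expected counts are rounded before a count test, and these were whole already. Sequencing was paired-end at 150 bases from 1 µg of total RNA, per the labels.

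Counts were filtered with edgeR's filterByExpr (minimum 10), scaled by trimmed mean of M values and tested with edgeR 4.0.16 (quasi-likelihood F test, two-sided, Benjamini-Hochberg over 20472 genes, threshold 0.05) in R 4.3.3. DESeq2 1.42.0 and limma-voom (limma 3.58.1) were alternatives. The fits were tested on simulated data. Log2 CPM used a prior count of 2. The members, lists and tests were chosen with earlier results of these data known. Named genes had, per list, an unadjusted p under 0.05 (at most 4, at least the 2 smallest). Replicate numbers follow record order. The design assumed raw counts, and the test was kept for the estimates. Of the genes and ratios computed under these rules, 1 gene and 1 ratio are not reported here.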

Additional observations from a re-analysis of the deposited data

How the results depend on the processing

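The log2 fold changes of Trpc1, Trpv2, Trpm7 and Orai1 kept their direction under all 13 alternative settings chosen for them. Trpm7 passed with DESeq2 (0.35), which made 1 member called, and with DESeq2 without each library in turn (0.36, 0.31, 0.38 without vehicle replicates 1, 2 and 3, and 0.38, 0.33, 0.35 without setanaxib replicates 1, 2 and 3, chosen after seeing the data). Leaving out 1 library moved Trpc6 between -1.32 and 0.20 (positive without setanaxib replicate 1). It moved Trpm4 between -0.11 and 0.40, negative without setanaxib replicates 2 (-0.03) and 3 (-0.11). Piezo1 moved between -0.37 and 0.02, positive without setanaxib replicates 1 (0.024) and 2 (0.0095). DESeq2, chosen after seeing the data, gave Piezo1 0.017 and 0.0055 there, and -0.37 (called) without setanaxib replicate 3. Stim1 moved between -0.011 and 0.19, negative without setanaxib replicate 3. The cause was not tested. The count of genes called by edgeR was 1, by DESeq2 505 and by limma-voom 0 (1962 at an unadjusted p under 0.05), and between 0 and 1 by edgeR without 1 library. Without 1 library DESeq2 called between 523 and 1392 genes, more than with all 6. Of 194 values of the 15 named genes of the lists under these alternatives, 189 stayed on their side of the threshold and 5 passed with DESeq2 in the same direction. No scaling moved the median of all genes by more than 0.1 on the log2 scale. Trpc6 is limited by its low level, at no more than 91 estimated counts, and by its 0 in setanaxib replicate 1. No paired analysis was possible because the labels give the groups no shared replicate numbers.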
